A study of Homo sapiens with 18 samples.

Results

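The genes described here encode the proteins of the cytoplasmic ribosome. They were chosen by symbol, as the numbered RPL and RPS genes with at most 1 suffix letter (A or L for the large subunit, A or X for the small), together with RPLP0, RPLP1, RPLP2 and RPSA. This took 80 of the 28063 gene symbols, 49 of the large subunit and 31 of the small subunit, and left out ribosomal protein pseudogenes. A filter on low counts kept 76 of them for testing, 46 large and 30 small.

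Ribosomes are made of ribosomal RNA and one copy of most ribosomal proteins, so the genes of both subunits are transcribed at high rates in growing cells. Most of their messenger RNAs begin with a run of pyrimidines, the terminal oligopyrimidine tract, through which mTOR signalling controls their translation. Their transcripts are short, abundant and stable, and in neuroblastoma the transcription factor MYCN is known to drive ribosome production.

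The study measured RNA made during 2 h of exposure to 500 uM 4-thiouridine (4sU), a uridine analogue that is read as a base conversion after chemical modification. Unmodified cells of the human neuroblastoma lines IMR-32, KELLY and SK-N-DZ received 1 uM BRM014, an inhibitor of the chromatin remodelling ATPases SMARCA4 and SMARCA2, or its vehicle DMSO, all with 4sU. IMR-32 cells whose SMARCA4 carries an auxin-inducible degron (SMARCA4-mAID) received 500 uM auxin, which triggers destruction of the fusion protein, or the vehicle ethanol, also with 4sU. A ninth group was KELLY cells with neither drug nor 4sU, and each group had 2 libraries. The fusion is carried by the ethanol controls too. The sources used here do not give how long BRM014 or auxin was applied or whether the engineered line is a single clone. The labels do not say whether a group's libraries were separate cultures; p-values therefore measure only the spread between these libraries.

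The 16 labelled libraries held 724913 to 1740475 counts in genes, of which 3457 to 16125 fell in ribosomal protein genes. In IMR-32 and SK-N-DZ the BRM014 libraries were shallower than their controls (741970 and 775064 against 1148208 and 1438139 counts in IMR-32, 724913 and 758288 against 1589230 and 1740475 in SK-N-DZ), whereas in KELLY depth overlapped. The part of this depth gap in the results was not tested. Between 8 and 10 of 10 adrenergic neuroblast markers were detected in every labelled library, with a summed level of 7105 to 15530 CPM. The summed level was 1.32 to 75.2 CPM for 7 Schwann or mesenchymal markers. It was 0.809 to 12.6 for 5 blood markers and 0 to 3.63 for 6 epithelial or endothelial markers. For these markers CPM are counts scaled to a common library size by total gene counts alone, without TMM factors. For ribosomal protein genes CPM are counts scaled to a common library size by TMM factors. Of the 10 adrenergic markers 1 rose and 2 fell under BRM014 in IMR-32, where 6.26% of all genes tested rose and 6.57% fell. In KELLY 3 rose and 5 fell (6.57% and 4.98% of all genes), and in SK-N-DZ 5 rose and 4 fell (9.88% and 9.55%). After auxin 2 markers rose and 1 fell (1.03% and 1.16% of all genes). Their part in the results was not tested. SMARCA4 itself had 55 to 123 counts in unmodified IMR-32 libraries and 887 to 1379 in SMARCA4-mAID libraries. Since BRM014 and auxin act on the protein, these counts are no check of the treatment.

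To show the start sites that the results refer to, the DNA around the annotated start is printed for RPL10, RPL13A, RPL19 and RPLP0, which fell in all 3 lines under BRM014, for RPL28 and RPLP1, which had the lowest mean change, and for RPL34 and RPS13, whose mean change lay close to 0. Each runs 5′ to 3′ on the gene's strand from 50 bases before the start to 20 bases from the start onward, in the RefSeq build GRCh38.p14. Capitals mark the longest unbroken run of C and T that touches the 10 bases on either side of the start.
RPL10: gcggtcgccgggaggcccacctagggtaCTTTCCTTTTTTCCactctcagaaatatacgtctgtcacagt
RPL13A: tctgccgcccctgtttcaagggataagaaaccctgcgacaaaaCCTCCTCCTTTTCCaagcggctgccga
RPL19: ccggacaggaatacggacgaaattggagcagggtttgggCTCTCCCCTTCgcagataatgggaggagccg
RPLP0: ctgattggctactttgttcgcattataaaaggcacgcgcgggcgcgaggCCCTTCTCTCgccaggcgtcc
RPL28: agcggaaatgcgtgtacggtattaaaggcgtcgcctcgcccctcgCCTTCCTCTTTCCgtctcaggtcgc
RPLP1: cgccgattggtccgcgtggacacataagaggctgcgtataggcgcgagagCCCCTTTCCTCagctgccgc
RPL34: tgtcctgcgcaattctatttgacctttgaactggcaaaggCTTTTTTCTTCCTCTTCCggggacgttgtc
RPS13: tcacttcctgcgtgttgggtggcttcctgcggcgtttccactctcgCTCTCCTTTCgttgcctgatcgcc

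These windows lie at chrX:154398015-154398084 (plus strand) for RPL10, chr19:49487558-49487627 (plus) for RPL13A, chr17:39200233-39200302 (plus) for RPL19 and chr12:120201092-120201161 (minus) for RPLP0. Those of RPL28, RPLP1, RPL34 and RPS13 lie at chr19:55385882-55385951 (plus), chr15:69452768-69452837 (plus), chr4:108620526-108620595 (plus) and chr11:17077648-17077717 (minus). All 8 hold a run, of 14 bases in RPL10 and RPL13A, 11 in RPL19, 10 in RPLP0, 13 in RPL28, 11 in RPLP1, 18 in RPL34 and 10 in RPS13. Genes that fell and genes near 0 both carry one.

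Of the 80 genes, 63 had a promoter in the RefSeq table. A pyrimidine run of at least 7 bases at the start was present in 51 of these 63 (81%), against 20% of 15843 protein-coding promoters. The run was found in 25 of the 33 genes with a window that were lower under BRM014 on the mean of 3 lines (75.8%) and in 24 of the 27 tested genes with a window that were not (88.9%). In the window from 250 bases before to 50 after the start, searched on both strands, the ETS-type word CCGGAAG was present in 33.3% of ribosomal protein promoters and 14.2% of all, and the YY1-type word AAGATGGC in 9.52% and 3.91%. The E-box CACGTG, the word that MYC-family factors can bind, was present in 4.76% and 8.88%, and TATAAA in 9.52% and 9.63%. CCGGAAG ends in the letters with which AAGATGGC begins, so that these words can share bases, and a match is a description of the sequence alone.

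Ribosomal protein genes took a smaller share of new RNA in every BRM014 group than in its DMSO group. In IMR-32 the share of gene counts was 0.645% and 0.581% in the 2 DMSO libraries and 0.466% and 0.467% in the 2 BRM014 libraries. The KELLY libraries had 0.886% and 0.941% with DMSO and 0.749% and 0.724% under BRM014. In SK-N-DZ it was 0.895% and 0.927% with DMSO and 0.573% and 0.625% with BRM014. The libraries of treated and control groups did not overlap in any line, but an exact permutation test of 2 libraries against 2 cannot give a two-sided p below 0.333.

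In SMARCA4-mAID cells the share was 0.716% and 0.759% with ethanol and 0.652% and 0.669% with auxin. These groups did not overlap either, and their means, 0.737% ± 0.0304 and 0.661% ± 0.0118 (SD, n = 2 each), lay closer than those of IMR-32, 0.613% ± 0.0453 and 0.467% ± 0.000804. The large-subunit genes held 1.66 to 1.87 times the counts of the small-subunit genes in group means over the 8 labelled groups, and treatment left that ratio within a narrow range: in IMR-32 it was 1.87 ± 0.09 with DMSO and 1.84 ± 0.20 with BRM014, and in SK-N-DZ 1.77 ± 0.02 and 1.80 ± 0.13. Shares and fold changes are set against all other genes in the same library, and in bulk samples fewer cells making a transcript and less RNA per cell cannot be told apart.

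**Figure D1:**
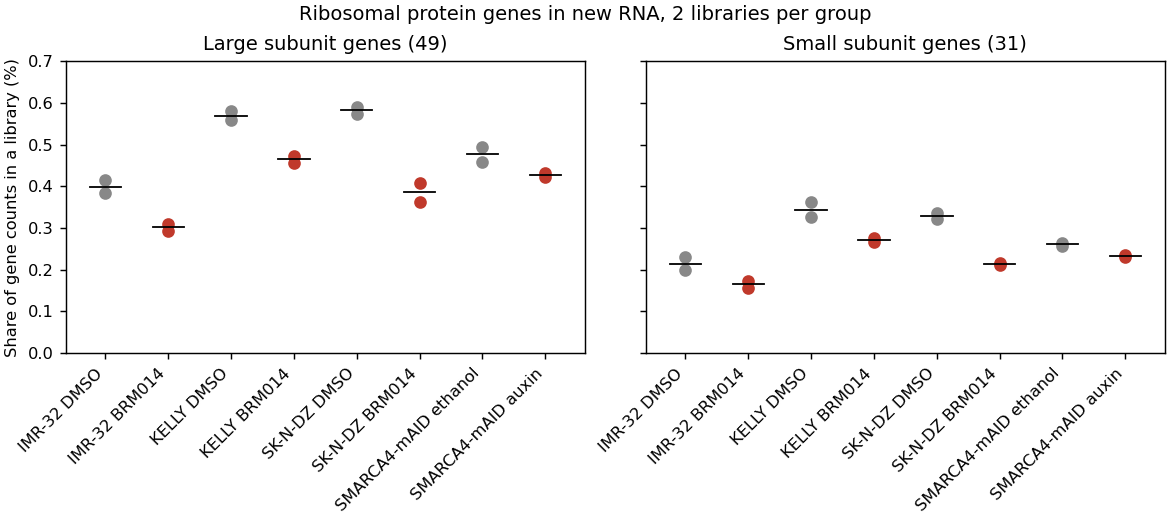
Share of all gene counts in a library, in percent, taken by large-subunit genes (left) and small-subunit genes (right), with each point 1 library and each bar the mean of 2, grey for vehicle and red for treated. Both subunits lie lower under BRM014 than under DMSO in each line, with the 3 lines and the SMARCA4-mAID pair shown side by side.

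Gene by gene, BRM014 lowered ribosomal protein transcripts and raised none past the threshold. A gene was called at an adjusted p below 0.05 in edgeR's quasi-likelihood test, adjusted over all 12853 genes tested. In IMR-32, 16 of 76 fell, 10 of the large and 6 of the small subunit, where 6.57% of all genes tested fell and 6.26% rose. In KELLY 12 fell, 8 large and 4 small, where 4.98% of all genes fell and 6.57% rose. In SK-N-DZ 31 fell, 19 large and 12 small, where 9.55% of all genes fell and 9.88% rose.

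The median log2 fold change of the 76 genes was -0.41 in IMR-32, -0.36 in KELLY and -0.61 in SK-N-DZ, against -0.02, 0 and -0.04 over all genes tested. The large-subunit median was -0.42 in IMR-32, against -0.41 for the small subunit. For KELLY the medians were -0.25 (large) and -0.45 (small), and for SK-N-DZ -0.56 (large) and -0.67 (small). Both treated libraries lay below both controls for 37 of the 76 genes in IMR-32, 47 in KELLY and 58 in SK-N-DZ, where this was so for 26.6%, 25% and 30.6% of all genes tested. On the mean of the 3 lines 42 genes fell, 25 large and 17 small, where 15.3% of all genes fell and 14.8% rose. That mean change had a median of -0.46, against -0.04 over all genes.

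The counts of calls leaned on single libraries in IMR-32 and KELLY. Without the first IMR-32 DMSO library 4 genes were called lower in IMR-32, and without the first IMR-32 BRM014 library 10. In KELLY the count was 4 and 5 without the first and the second BRM014 library, and 3 and 6 without the first and the second DMSO library. In SK-N-DZ it was 18 without the first BRM014 library and 22 to 25 without any other. On the mean of 3 lines it was 35 to 43 whichever library was left out.

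Single calls were followed through the same fits, under the same limit. In IMR-32, 2 of the 16 calls, those of RPLP0 and RPL28, held in every fit that left out 1 of the line's 4 libraries, and 10 of 16 held with offsets for transcript length and uridine content, a fit described further on. For KELLY 0 of 12 calls held without each library in turn and 3 held with offsets. Of the 31 SK-N-DZ calls, 26 were refitted gene by gene; 12 of these held without each library and 14 with offsets. On the mean of 3 lines 32 of the 42 calls were refitted, of which 23 held without each of 12 libraries and 20 with offsets. The share of all ribosomal protein genes that fell on that mean was 55.3%, and the counts by role given next are to be read against it and against the 15.3% of all genes.

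**Figure D2:**
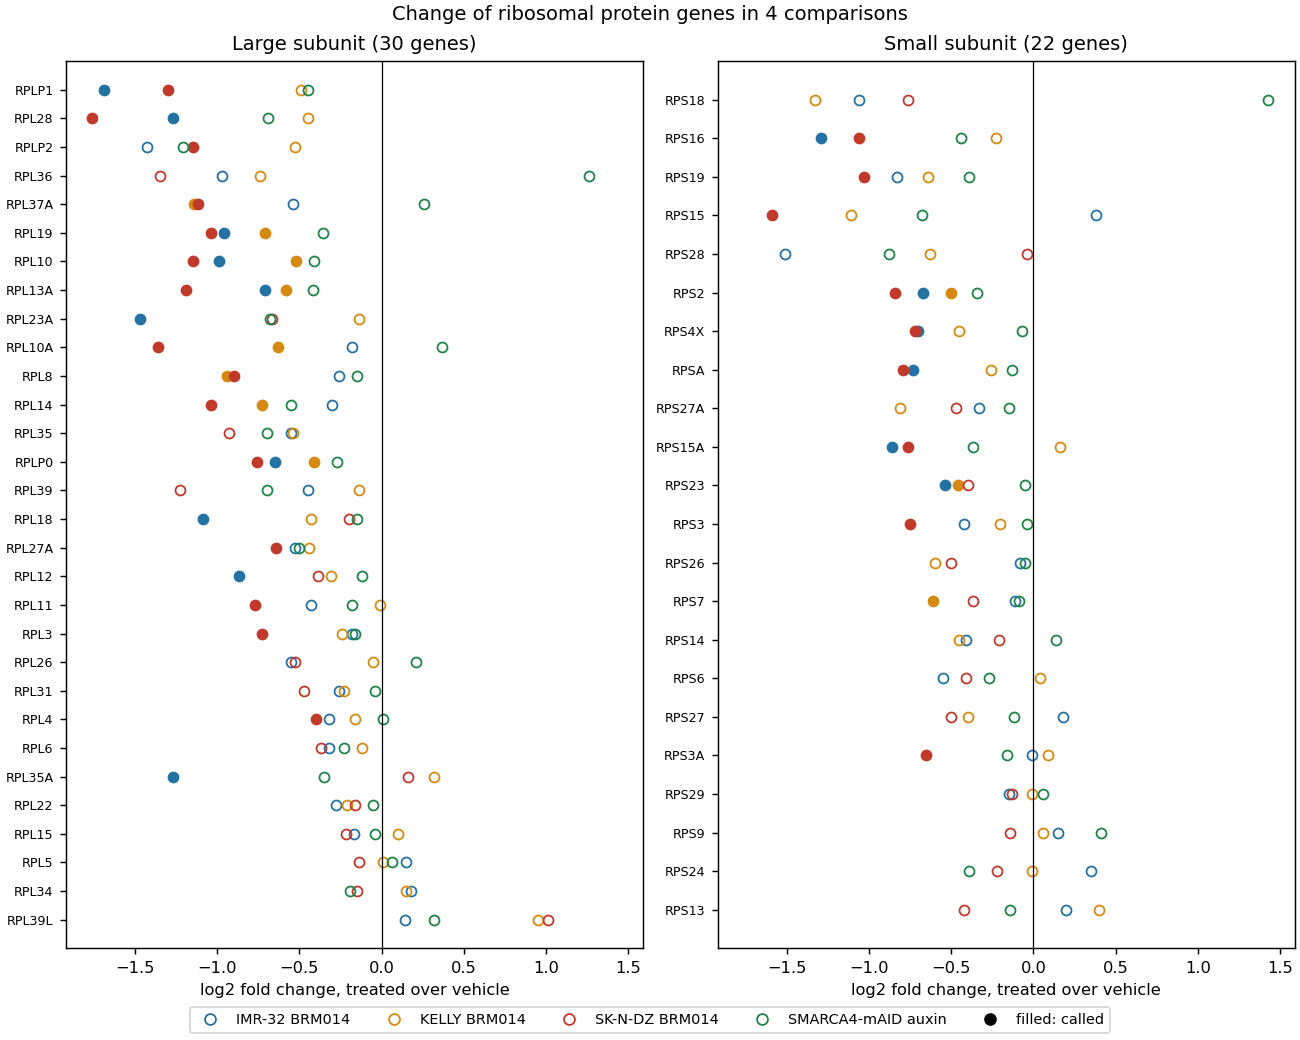
log2 fold change of treated over vehicle (x axis) for the tested ribosomal protein genes named in the text, 30 of the large and 22 of the small subunit (rows, sorted by the mean of 3 lines), large subunit left and small subunit right, with filled points for genes called at an adjusted p below 0.05. Filled points are on the left of 0 in each of the 3 BRM014 comparisons, and none is filled for auxin.

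In all, 5 genes fell in each of the 3 lines: RPLP0, RPL10, RPL13A, RPL19 and RPS2. Without at least 1 of the line's libraries the KELLY call of each was lost, and so was the IMR-32 call of each but RPLP0. A further 12 fell in 2 lines, 20 in 1 line and 39 in none. The values of 54 of the 76 genes were below 0 in all 3 lines, and RPL39L was the single gene above 0 in all 3.

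The ribosomal stalk, the flexible arm that recruits elongation factors, fell on the mean of 3 lines in all 4 of its listed genes (55.3% of the family). With offsets RPLP0 and RPLP1 were still called on that mean, and RPLP2 (-0.58, edgeR adjusted p = 0.138) and RPL12 were not. In SK-N-DZ the RPLP2 value with offsets was -0.57 (edgeR adjusted p = 0.431) and was not called. RPLP0, the core protein of the stalk (chr12:120196686-120201235, minus strand, GENCODE v29), was measured at 315 and 298 TMM-scaled CPM in the IMR-32 DMSO libraries and at 177 and 214 with BRM014. In KELLY it was at 334 and 329 with DMSO and 261 and 238 with BRM014, and in SK-N-DZ at 376 and 424 against 207 and 264. Treated and control libraries did not overlap in any line. The log2 fold changes were -0.65 ± 0.14 (SE, edgeR adjusted p = 0.000426), -0.41 ± 0.13 (0.0188) and -0.76 ± 0.13 (4.35e-06).

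RPLP1, which pairs with RPLP2 on the stalk, had 50.7 and 56.7 CPM in IMR-32 with DMSO and 10.3 and 22.5 with BRM014. It had 66.5 and 86.5 in SK-N-DZ with DMSO and 30.6 and 31.6 with BRM014. In KELLY the values were 79.7 and 70.7 with DMSO and 64.7 and 42.9 with BRM014. The treated libraries were the lower ones in all 3 lines, and the change was called in IMR-32 (-1.69 ± 0.39) and SK-N-DZ (-1.30 ± 0.32) but not in KELLY (-0.49 ± 0.28, edgeR adjusted p = 0.289). The IMR-32 call was lost without the first BRM014 library (adjusted p = 0.0699). RPLP2 was called in SK-N-DZ alone (-1.15 ± 0.43, adjusted p = 0.0457), a call that DESeq2 (adjusted p = 0.0534) did not make and that was lost without any 1 of the 4 libraries (adjusted p from 0.115 to 0.213). RPL12, at the base of the stalk, was called in IMR-32 alone (-0.87 ± 0.28, adjusted p = 0.0268). That call was lost with offsets (-0.61, 0.16) and without any 1 of the 4 libraries (0.0685 to 0.169), and RPL12 was not called on the mean with offsets (-0.19, 0.377).

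Near the centre where peptide bonds form, RPL10, RPL8 and RPL3 fell on the mean of 3 lines and in SK-N-DZ. So did RPL10A, which was listed with them but lies away from that centre. RPL10, which joins the large subunit in one of the last steps of its maturation, was at 171 and 115 CPM in IMR-32 with DMSO and 63.4 and 81.5 with BRM014. In KELLY it was at 212 and 230 against 144 and 164, and in SK-N-DZ at 240 and 215 against 85.1 and 120. No treated library reached a control library of its line. Its mean change over the lines was -0.88 ± 0.11, and RPL10 lies on the X chromosome (chrX:154389955-154409168, plus strand, GENCODE v29), where DNASE1L1 overlaps it on the other strand.

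RPL8, which reaches towards the peptidyl transferase centre, fell in SK-N-DZ (-0.90 ± 0.25) and KELLY (-0.94 ± 0.25) and was not called in IMR-32 (-0.26 ± 0.33). With offsets RPL8 was called in neither line (KELLY -0.47, adjusted p = 0.266; SK-N-DZ -0.23, 0.616) nor on the mean (-0.19, 0.44). Its KELLY call was also lost without the first BRM014 or the first DMSO library (0.0615 and 0.0915), and its SK-N-DZ call without the first BRM014 library there (0.115). RPL3, a neighbour of that centre, changed by -0.73 ± 0.17 in SK-N-DZ and was not called in IMR-32 (-0.18 ± 0.21) or KELLY (-0.24 ± 0.16). With offsets its SK-N-DZ value was -0.21 (adjusted p = 0.48). RPL10A forms the mobile stalk beside the site where spent tRNA leaves, and its response differed between lines, as given below.

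Among the genes of the peptide exit tunnel and its rim, 4 of the 8 tested fell on the mean of 3 lines, where 55.3% of the family did. RPL19 was at 51.5 and 49.4 CPM in IMR-32 with DMSO and 20.6 and 30.9 with BRM014. It was at 89.3 and 113 in KELLY with DMSO and 57.5 and 65.3 with BRM014, and at 162 and 147 in SK-N-DZ against 69.1 and 80.8. The groups did not overlap in any line, and the mean change was -0.91 ± 0.16. RPL4, whose long loop lines the tunnel, changed less, by -0.29 ± 0.07 on the mean of 3 lines, and was called in SK-N-DZ alone (-0.40 ± 0.13, adjusted p = 0.0158), a call lost without any 1 of 3 libraries (0.0728 to 0.33). RPL23A, a docking point at the tunnel exit, changed by -1.47 ± 0.42 in IMR-32 and was not called in KELLY (-0.14 ± 0.26) or SK-N-DZ (-0.67 ± 0.28). The fall of RPL23A in IMR-32 was no longer called without the second BRM014 or the first DMSO library (adjusted p = 0.152 and 0.119). RPL35, also at the tunnel exit, was called on the mean alone (-0.68 ± 0.25, adjusted p = 0.0337), and was not called with offsets (-0.13, 0.793) or without any 1 of 8 of the 12 libraries (0.0501 to 0.142). RPL22, RPL26, RPL31 and RPL39 were not called in any line, with mean changes of -0.22, -0.38, -0.32 and -0.61. With offsets RPL22 (-0.46, edgeR adjusted p = 0.00451) and RPL39 (-0.76, 0.0322) were called lower on the mean, and RPL26 and RPL31 were not. RPL39 was then called in SK-N-DZ too (-1.47, edgeR adjusted p = 0.0473), where its BRM014 libraries held 2 and 12 counts.

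The particle of RPL5 and RPL11 with 5S ribosomal RNA, which also binds the p53 regulator MDM2, differed in its 2 proteins. RPL5 was at 317 and 255 CPM in IMR-32 with DMSO and 318 and 317 with BRM014, at 272 and 246 against 266 and 256 in KELLY, and at 182 and 171 against 149 and 169 in SK-N-DZ. The treated libraries of RPL5 were above both controls in IMR-32, between them in KELLY and below them in SK-N-DZ, and its mean change was 0.00 ± 0.08. RPL11 changed by -0.40 ± 0.16 on the mean of 3 lines, with an edgeR adjusted p of 0.0495 that became 0.0621 with DESeq2 and was above the threshold without any 1 of 9 of the 12 libraries (up to 0.251). RPL11 was called in SK-N-DZ (-0.77 ± 0.26), but not without the first BRM014 library there (-0.36, adjusted p = 0.521) or the first DMSO library (-0.58, 0.246).

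Of the other large-subunit genes, RPL13A, RPL28, RPL14 and RPL37A stood among those with the lowest values. RPL13A, which is also known as a regulator of inflammatory transcripts outside the ribosome, was at 107 and 84.2 CPM in IMR-32 with DMSO and 61.9 and 56.2 with BRM014. KELLY had 210 and 162 against 124 and 126, and SK-N-DZ had 152 and 162 against 65.1 and 72. All treated libraries were below their controls.

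RPL28 was at 83.8 and 93.3 CPM in IMR-32 with DMSO and 33.9 and 39.3 with BRM014. In SK-N-DZ it was at 77.9 and 125 against 37.2 and 22.7, and in KELLY at 86.3 and 70 against 58.8 and 55.7. The log2 fold change was -1.27 ± 0.30 in IMR-32, -1.76 ± 0.30 in SK-N-DZ and -0.45 ± 0.25 in KELLY, with only the last not called. RPL37A fell in KELLY (-1.14 ± 0.31) and SK-N-DZ (-1.12 ± 0.34) and RPL14 in the same lines (-0.73 ± 0.22 and -1.04 ± 0.28). The calls of RPL37A held with offsets and were lost in KELLY without any 1 of 2 libraries (adjusted p = 0.0518 and 0.0782) and in SK-N-DZ without any 1 of 2 (0.0932 and 0.162). Those of RPL14 were lost with offsets (KELLY -0.45, 0.214; SK-N-DZ -0.72, 0.0737). They were lost too without the first BRM014 or the first DMSO library, at 0.211 and 0.179 for KELLY and 0.0561 and 0.0748 for SK-N-DZ. RPL18 was called in IMR-32 alone (-1.09 ± 0.36, adjusted p = 0.0288), but not with offsets (-0.81, 0.144), without the first BRM014 library (-0.69, 0.368) or without the first DMSO library (-0.83, 0.289).

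In the small subunit, 5 of 7 genes listed for messenger RNA entry and decoding fell on the mean of 3 lines, against 55.3% of the family. The 7 include RPS3A, a protein of the platform, which was not called on that mean (-0.19 ± 0.08, edgeR adjusted p = 0.0728). RPS2, at the entry channel (chr16:1962052-1964860, minus strand, GENCODE v29), was at 147 and 98.8 CPM in IMR-32 with DMSO and 81 and 74.4 with BRM014. It was at 214 and 231 in KELLY against 186 and 129, and at 222 and 271 in SK-N-DZ against 134 and 142. No treated library overlapped its controls, and the changes were -0.67 ± 0.21, -0.50 ± 0.16 and -0.84 ± 0.18.

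RPS23, which helps to monitor codon pairing, fell in IMR-32 (-0.54 ± 0.18) and KELLY (-0.46 ± 0.15) and was not called in SK-N-DZ (-0.40 ± 0.17, adjusted p = 0.0760). Its calls were lost without any 1 of 3 libraries in IMR-32 (0.0827 to 0.196) and of 3 in KELLY (0.0529 to 0.363). RPS3, at the entry channel, fell in SK-N-DZ (-0.75 ± 0.19) and RPS15, whose tail reaches the decoding site, fell there too (-1.59 ± 0.38). The call of RPS3 was lost without the first SK-N-DZ BRM014 library (adjusted p = 0.062). That of RPS15 was lost with offsets (-0.83, 0.142) and without the second SK-N-DZ DMSO library (-1.25, 0.0715), and on the mean RPS15 was not called with offsets (-0.19, 0.655) or without any 1 of 3 libraries (0.0545 to 0.0685). RPS15 in IMR-32 was low, at 13.2 and 11 CPM with DMSO and 19.2 and 12.6 with BRM014, and had a change of 0.38 ± 0.53 that was not called. RPS27A, made as a fusion to ubiquitin, changed by -0.54 ± 0.21 on the mean of 3 lines and was not called in any single line. On the mean it was not called by DESeq2 (adjusted p = 0.0519) or without any 1 of 6 libraries (0.082 to 0.315). RPS9, at the entry channel, had 0.02 ± 0.31.

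At the messenger RNA exit, 4 of 6 genes fell on the mean of 3 lines, against 55.3% of the family. RPSA, which also serves as a laminin receptor, was at 196 and 148 CPM in IMR-32 with DMSO and 102 and 107 with BRM014, and at 131 and 133 in SK-N-DZ against 78.4 and 74.5. KELLY had 186 and 236 against 184 and 168. Treated libraries were lower in each line, and the change was called in IMR-32 (-0.73 ± 0.19) and SK-N-DZ (-0.79 ± 0.20) but not in KELLY (-0.26 ± 0.16). The IMR-32 call was lost without the first DMSO library (adjusted p = 0.197). RPS7 was called in KELLY (-0.61 ± 0.18), but not with offsets (-0.47, adjusted p = 0.0892) or without any 1 of the 4 libraries (0.0631 to 0.102), and on the mean not with offsets (-0.27, 0.0649). RPS14 was called on the mean alone (-0.36 ± 0.14, adjusted p = 0.0398) but not with offsets (-0.22, 0.272), by DESeq2 (0.0619) or without any 1 of 6 libraries (0.0552 to 0.355). RPS26 and RPS28 were not called.

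RPS4X, an X-linked protein of the small subunit body, fell in IMR-32 (-0.70 ± 0.19) and SK-N-DZ (-0.72 ± 0.17), and RPS16 in the same lines (-1.29 ± 0.35 and -1.06 ± 0.28). The IMR-32 call of RPS4X was lost without the first DMSO library (adjusted p = 0.12). The calls of RPS16 were lost without the first IMR-32 BRM014 or DMSO library (0.262 and 0.236) and without the first SK-N-DZ BRM014 library (0.0806). Of the genes known from kinase signalling or from Diamond-Blackfan anaemia, RPS6, the substrate of S6 kinase, was not called in any line (IMR-32 -0.55 ± 0.23, KELLY 0.04 ± 0.19, SK-N-DZ -0.41 ± 0.23). RPS19, the gene most often mutated in that anaemia, fell in SK-N-DZ (-1.03 ± 0.32) and on the mean (-0.83 ± 0.21). With offsets both calls were lost (-0.29, adjusted p = 0.637, and -0.26, 0.408), and the SK-N-DZ call was lost without any 1 of 3 of its 4 libraries (0.0727 to 0.129). RPS24 was not called, with a mean change of 0.04 ± 0.11.

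**Figure D3:**
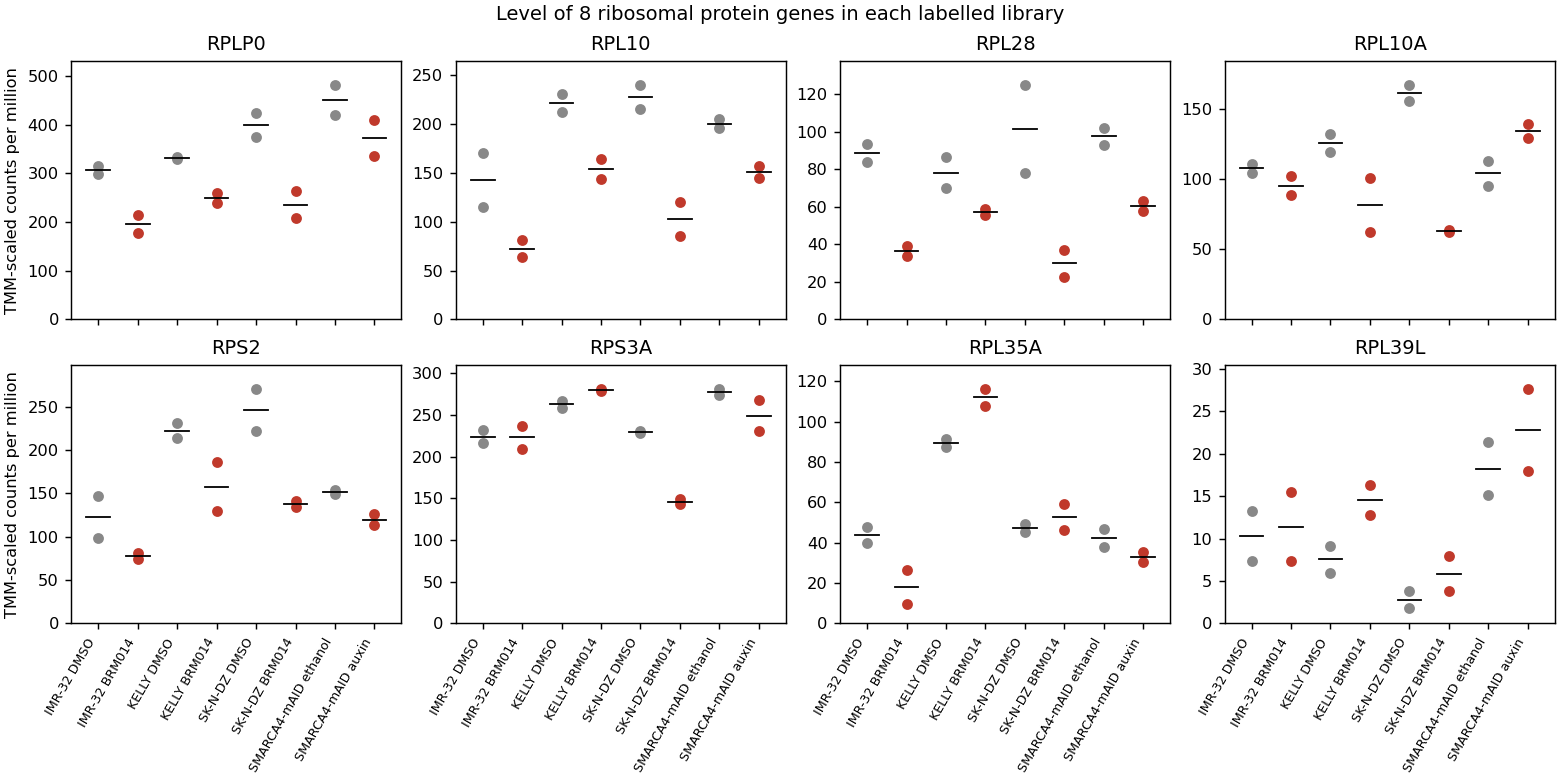
Level of 8 ribosomal protein genes in TMM-scaled CPM (y axis, from 0) in each labelled library, with points for the 2 libraries of a group and bars for their mean, grey for vehicle and red for treated. RPLP0, RPL10 and RPS2 are lower with BRM014 in all 3 lines, RPS3A in SK-N-DZ, RPL35A in IMR-32, and RPL39L is low throughout.

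The response of 3 of the 76 genes differed between the lines, by a test of the BRM014 effect among the 3 lines at an adjusted p below 0.05. Of all genes tested 6.47% passed, so the family did not pass more often than other genes. RPL10A was at 104 and 111 CPM in IMR-32 with DMSO and 102 and 88.5 with BRM014. In KELLY it was at 132 and 119 against 62.1 and 100, and in SK-N-DZ at 167 and 155 against 63.8 and 61.9. The change was -0.18 ± 0.22 in IMR-32, -0.63 ± 0.20 in KELLY and -1.36 ± 0.22 in SK-N-DZ (edgeR adjusted p of the difference = 0.0266). SK-N-DZ differed from IMR-32 by -1.18 ± 0.32 (adjusted p = 0.0189). The difference among lines was above the threshold without any 1 of 5 libraries (adjusted p up to 0.124).

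RPS3A, a protein of the small subunit platform, was at 232 and 217 CPM in IMR-32 with DMSO and 237 and 209 with BRM014, and at 259 and 267 in KELLY against 282 and 279. In SK-N-DZ it was at 231 and 228 against 144 and 149. The SK-N-DZ groups were far apart, the IMR-32 groups overlapped, and in KELLY the treated libraries were the higher ones. The change was -0.65 ± 0.15 in SK-N-DZ, -0.01 ± 0.15 in IMR-32 and 0.09 ± 0.13 in KELLY (edgeR adjusted p of the difference = 0.0175). SK-N-DZ differed from KELLY by -0.74 ± 0.20 (adjusted p = 0.0135). Without any 1 SK-N-DZ library the difference among lines had an adjusted p of 0.059 to 0.101.

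RPL35A, another gene mutated in Diamond-Blackfan anaemia, was at 39.7 and 47.6 CPM in IMR-32 with DMSO and 26.5 and 9.8 with BRM014. In KELLY it was at 87.5 and 91.3 against 116 and 108, and in SK-N-DZ at 45.5 and 49 against 46.5 and 59.4. It was lower in the treated libraries of IMR-32, higher in those of KELLY, and overlapped in SK-N-DZ. The change was -1.27 ± 0.38 in IMR-32 and 0.32 ± 0.26 in KELLY, a difference of 1.59 ± 0.46 (edgeR adjusted p = 0.0317, and 0.0437 among the 3 lines). Without the second IMR-32 BRM014 library the difference among lines had an adjusted p of 0.429. It was above the threshold without any 1 of 8 of the 12 libraries. RPL28 and RPS15A had the next smallest p, and neither passed (adjusted p = 0.0591 and 0.0727). RPL28 did differ between SK-N-DZ and KELLY alone (-1.31 ± 0.39, edgeR adjusted p = 0.0362). RPS15A had -0.86 ± 0.28 in IMR-32, 0.16 ± 0.22 in KELLY and -0.76 ± 0.25 in SK-N-DZ.

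In SMARCA4-mAID cells no ribosomal protein gene was called after auxin in edgeR's test, where 1.16% of all genes tested fell and 1.03% rose. At an unadjusted p below 0.05 there were 12 of 76, all lower, where 11.8% of all genes tested had such a p and 6.08% had one with a lower value. DESeq2 also called 0. Fitted on the 4 libraries of this comparison alone, edgeR called 3 lower, among them RPL28 and RPLP2 with adjusted p of 0.0497 and 0.0499. The share of all genes called in that fit was not counted, so these 3 calls cannot be set against it. The median change was -0.17, against 0 over all genes, with -0.18 for the large and -0.15 for the small subunit. Both auxin libraries lay below both ethanol libraries for 31 of 76 genes, where this was so for 20.5% of all genes.

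RPLP0 was at 419 and 482 CPM with ethanol and 336 and 410 with auxin, so that every auxin library was below every ethanol library, and the change was -0.27 ± 0.12 (edgeR adjusted p = 0.322). RPL28 was at 93 and 102 against 62.8 and 58 (-0.69 ± 0.25, adjusted p = 0.147), and RPL10 at 196 and 205 against 145 and 156 (-0.41 ± 0.16, adjusted p = 0.236). RPL10A went the other way, from 95.1 and 113 to 129 and 139 (0.37 ± 0.19, adjusted p = 0.464). None of these passed the threshold.

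The effect of BRM014 in IMR-32 was then set against that of auxin, each with its own vehicle. No ribosomal protein gene differed at an adjusted p below 0.05 in edgeR or in DESeq2, where 1.95% of all genes tested did in edgeR, and 10 of 76 did at an unadjusted p below 0.05, where 12.4% of all genes did. The smallest p were those of RPS24 (0.74 ± 0.29, adjusted p = 0.201), RPLP1 (-1.24 ± 0.49, 0.225), RPS4X (-0.63 ± 0.26, 0.244) and RPSA (-0.60 ± 0.25, 0.276). The median difference was -0.22, so that the values were lower with BRM014 for most genes, and these intervals do not show that inhibition and degradation act alike.

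Among the most abundant transcripts per kilobase some fell and others lay near 0. RPL15 had the highest level per kilobase of transcript in each of the 4 vehicle groups and a mean of 404 TMM-scaled CPM per kilobase over them, and its mean BRM014 change was -0.10 ± 0.07. With offsets RPL15 was called lower on the mean (-0.22 ± 0.07, edgeR adjusted p = 0.00612) and in SK-N-DZ (-0.40, 0.00764). RPLP0 and RPL6 followed with means of 296 and 288 per kilobase, and both fell on the mean of 3 lines (-0.61 and -0.27 ± 0.08, the latter with an adjusted p of 0.00821). RPL6 was not called with offsets (-0.05, adjusted p = 0.745). RPS29 was at 284 per kilobase and changed by -0.09 ± 0.09. RPL34 and RPS13, whose start sites are printed above, changed by 0.06 ± 0.18 and 0.06 ± 0.15 on the mean of 3 lines. RPL15, RPL28, RPL35A, RPL4 and RPL27A, like RPL10, overlap a gene on the other strand (NKIRAS1, UBE2S, IQCG, ZWILCH and ST5), and reads of the pair may not have been told apart. The same holds for further genes, among them RPS4X (PIN4), RPL5 (FAM69A), RPS23 (ATG10), RPS3A (SH3D19) and RPS29 (LRR1 and RN7SL1). Genes left out of this list are not thereby free of an overlap.

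The paralogs that are known from particular tissues were rare. RPL10L, known from testis, and RPL3L, known from striated muscle, had 0 counts in each of the 18 libraries. RPL39L, a testis-enriched relative of RPL39, was at 6 and 9.1 CPM in KELLY with DMSO and 16.3 and 12.8 with BRM014, and at 1.8 and 3.9 in SK-N-DZ against 8 and 3.8. Its raw counts were 3 to 43 per labelled library, and its changes, 0.95 ± 0.62 in KELLY and 1.01 ± 0.85 in SK-N-DZ, were not called. RPL17 (0 to 15 counts) and RPS10 (0 to 8 counts) did not pass the filter. Each overlaps a read-through gene on its own strand, RPL17-C18orf32 and RPS10-NUDT3, and these were listed at 0 in every library.

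Levels under DMSO differed between lines. The median of the 76 genes was 55.6 CPM in IMR-32, 90.6 in KELLY and 97.0 in SK-N-DZ. IMR-32 was the lowest of the 3 for 53 genes, and for 42 of them both its libraries were below all 4 libraries of the other lines. KELLY was highest for 34 genes and SK-N-DZ for 36, with both libraries above all 4 of the other lines for 17 and 19. Between KELLY and SK-N-DZ alone the libraries did not overlap for 46 genes, of which 22 were higher in KELLY and 24 in SK-N-DZ. How often lines were apart in this way over all genes tested was not counted. These counts therefore do not set the 76 genes apart from others.

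Transcripts of ribosomal protein genes are short and hold fewer uridines, the base that 4sU replaces, than most. Their median length was 794 bases with 22.6% uridine, against 2619 bases and 24.6% over the genes tested that had a transcript. Across the 76 genes the change in each line went with the uridine percentage, with rank correlations of 0.20 for IMR-32, 0.37 for KELLY and 0.39 for SK-N-DZ. Over all genes they were 0.29, 0.30 and 0.40. These correlations are across genes that share libraries and are descriptions.

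With per-library offsets for length and uridine content, fewer genes were called. The count went to 11 in IMR-32, where 6.12% of all genes then fell, to 4 in KELLY (4.84% of all genes), to 20 in SK-N-DZ (7.32%) and to 26 on the mean of 3 lines (12.6%). Of the 42 genes called on the mean, 22 remained, among them RPL10, RPLP0, RPLP1, RPL28, RPL13A, RPL19, RPS2, RPS4X and RPSA. RPL10 had -0.94 with offsets and -0.88 without, and it was called in each line with them. RPLP0 (adjusted p = 0.182), RPL13A (0.411), RPL19 (0.589) and RPS2 (0.539) were no longer called in KELLY. RPL19 and RPS2 were not called in IMR-32 (0.283 and 0.192) or SK-N-DZ (0.292 and 0.0564) either, nor RPL13A in IMR-32 (0.227). RPS19 lost its call on the mean (adjusted p = 0.408), and the value of RPL3 went from -0.38 to 0.01. The median with offsets was -0.34 for IMR-32, -0.16 for KELLY and -0.43 for SK-N-DZ. Each gene entered this fit with a single annotated transcript, the one of middle length among its candidates. That transcript was long for RPL37 (7686 bases), RPL27A (4916), RPL37A (3647) and RPS23 (3437). Their mean changes were lower with offsets, at -0.30, -0.61, -1.18 and -0.61, against -0.10, -0.53, -0.94 and -0.47 without. The part of the transcript choice in these values and calls was not tested.

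**Figure D4:**
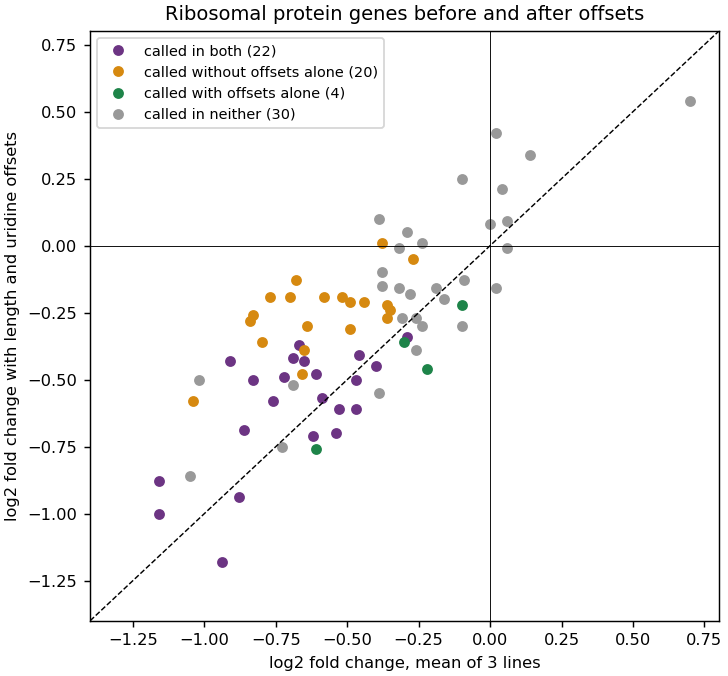
Mean log2 fold change over the 3 lines without (x axis) and with (y axis) offsets for transcript length and uridine content, each point 1 of 76 genes, colour giving the fit in which it was called and the dashed line equal values. Of the 42 genes called without offsets 22 remained called, 4 others were called with them alone, and 30 in neither fit.

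The unlabelled KELLY libraries give the counts that arise with no 4sU. Over both libraries the 80 genes had 220 counts, against 14083 and 11628 in the 2 labelled KELLY DMSO libraries, a background of 0.856%. For all other genes it was 0.343%. These shares are of raw counts; scaled by the reads that fell in no gene, the background was 113% for ribosomal protein genes and 45.4% for all others, and which scale applies turns on the counting rule, which was not given. The small-subunit genes had 1.22% and the large-subunit genes 0.635%. There were 31 genes with no unlabelled count and 68 with at most 3. Without RPS27, left out after its counts were seen, the background of the remaining 79 genes was 0.564%, and that of the remaining 30 small-subunit genes was 0.443%, below that of the large subunit.

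RPS27, a zinc-finger protein of the small subunit, was the exception. It had 45 and 31 counts without 4sU and 85 and 91 with it, so that its background was 43.2% (exact 95% interval 32.6 to 56.8%, counting error only). The next by number of unlabelled counts were RPS29 at 2.38% (1.29 to 4.02%), RPL8 at 4.2% (2.14 to 7.44%) and RPL27A at 5.34% (2.62 to 9.76%). RPL8 had 1 and 11 counts in the unlabelled libraries, so that its value rested mostly on the second. RPLP0 had 0 and 1 counts without 4sU, a background of 0.101% (0.00256 to 0.565%). RPS27 was not called in any comparison, with changes of 0.18 ± 0.41, -0.40 ± 0.32 and -0.50 ± 0.36 in the 3 lines and -0.12 ± 0.33 after auxin.

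**Figure D5:**
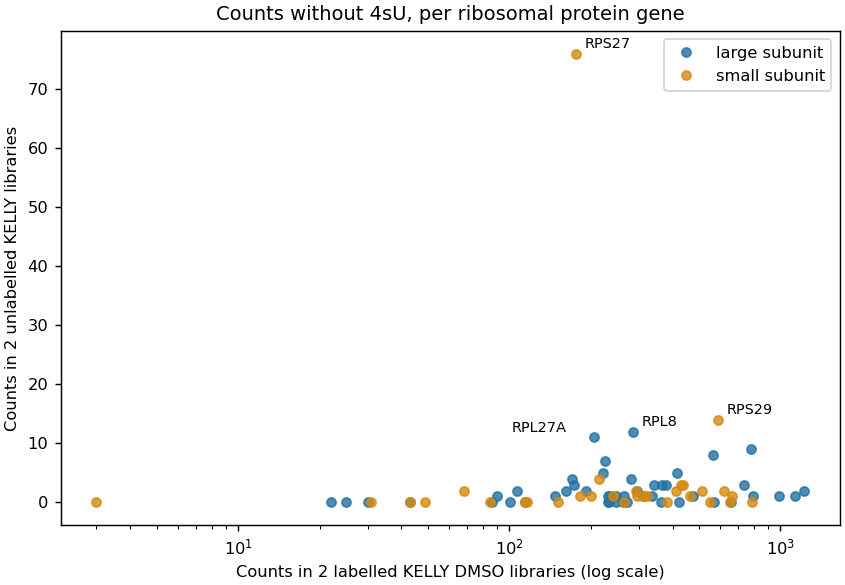
Counts in the 2 unlabelled KELLY libraries together (y axis) against counts in the 2 labelled KELLY DMSO libraries together (x axis, log scale) for the ribosomal protein genes with any labelled count, coloured by subunit. RPS27 stands apart with 76 unlabelled against 176 labelled counts, and RPS29, RPL8 and RPL27A follow with 14, 12 and 11.

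These libraries had 5395 and 4432 gene counts, and ribosomal protein genes took 2.24% ± 0.0355 of them (SD, n = 2), above the 0.913% ± 0.0391 of labelled KELLY. In them the large-subunit genes held 0.87 ± 0.07 times the counts of the small-subunit genes, against 1.66 ± 0.08 in labelled KELLY. RPS27 gave 45 of the 67 and 31 of the 51 small-subunit counts without 4sU. Without RPS27 the ratio was 2.50 and 2.35 in the unlabelled libraries and 1.74 and 1.64 in the labelled ones, so that the excess of small-subunit counts rested on this gene.

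Genes that work with the ribosome were read from lists beside its own proteins. Their calls were not checked with offsets or with single libraries left out. Of 30 translation factors, 28 were tested, and on the mean of 3 lines 14 fell and 2 rose (median -0.22), where 15.3% of all genes fell and 14.8% rose (median -0.04). EEF1A1, which delivers aminoacyl-tRNA, fell in each line (IMR-32 -0.74 ± 0.11, KELLY -0.44 ± 0.10, SK-N-DZ -0.66 ± 0.11) and after auxin (-0.47 ± 0.10, edgeR adjusted p = 0.00175). EEF2, which moves the ribosome along, fell in each line (-0.62, -0.40 and -0.90) and had -0.44 ± 0.13 after auxin (adjusted p = 0.0518). PABPC1, the poly(A)-binding protein, fell in IMR-32 (-0.66) and SK-N-DZ (-0.75), and the initiation scaffold EIF4G1 in each line (-0.76, -0.35 and -0.40).

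Of 35 ribosome assembly genes 34 were tested, and on the mean of 3 lines 12 fell and 1 rose (median -0.24), against the same 15.3% and 14.8% of all genes and their median of -0.04. NCL, encoding nucleolin, and NOP56, a core protein of the particles that methylate ribosomal RNA, fell in each line, with mean changes of -0.52 ± 0.05 and -0.68 ± 0.08. NOLC1 fell in KELLY and SK-N-DZ (-0.61 and -0.58) and NOP2, a ribosomal RNA methyltransferase, in SK-N-DZ (-1.11 ± 0.19). None of the assembly genes was called after auxin in edgeR's test, and 3 of 34 were below an unadjusted p of 0.05, as were 11.8% of all genes.

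Of 12 genes of translation control in and below mTOR signalling, 1 fell and 1 rose on the mean of 3 lines (median -0.15), where 15.3% of all genes fell. EIF4EBP1, a repressor of cap-dependent initiation, fell (-1.06 ± 0.28) and EIF4EBP2, its relative, rose (0.24 ± 0.09, edgeR adjusted p = 0.0405). RPTOR and TSC2 were not called (-0.45 ± 0.19 and -0.67 ± 0.32). Of 9 ribosomal paralogs and fusion genes 3 fell (median -0.27), among them RACK1, a signalling scaffold on the small subunit (-0.25 ± 0.09), and RPS27L (-0.64 ± 0.25). RPL36AL was called in IMR-32 alone (-1.91 ± 0.68, edgeR adjusted p = 0.048).

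Mitochondrial ribosomal protein genes, which serve a separate ribosome, gave 16 lower and 3 higher of 76 tested on the mean of 3 lines, with a median of -0.36, where 15.3% of all genes fell with a median of -0.04. Cytoplasmic ribosomal protein genes gave 42 lower and 0 higher of 76 with a median of -0.46. The difference between these sets was not tested. The mitochondrial calls were not checked with offsets or with single libraries left out. In single lines the mitochondrial set had 9 lower and 2 higher in SK-N-DZ, 3 lower and 3 higher in KELLY and 3 lower and 0 higher in IMR-32, where 9.55%, 4.98% and 6.57% of all genes fell.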

How the data were processed

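Each of the 18 deposited files holds whole-number counts per gene symbol that the authors named conversion counts; the submitters' processing notes name HISAT, HTSeq, DESeq2 and hg38. The counting rule, annotation and strand setting were not given in the sources used here. Here reads of near-identical pseudogenes or overlapping genes may therefore have been lost or shared. Rows naming no gene were left out of library totals; they held 46.4% to 57.4% (no feature) and 1.11% to 1.71% (ambiguous) of the reads counted in labelled libraries. The 16 labelled libraries were fitted together with edgeR 4.0.16 in R 4.3.3 (group means, TMM factors, filterByExpr, quasi-likelihood test, 8 residual degrees of freedom) and p-values were adjusted over 12853 genes by Benjamini-Hochberg. The mean of 3 lines weights each line equally. Alternatives were DESeq2 1.42.0, other scalings, no filter, the 4 libraries alone, a replicate block, offsets for transcript length and uridine content (mgcv 1.9.3) and leaving out each library. The fit was tested on simulated data. Same-numbered libraries did not deviate together (correlations of 0.01, -0.04, 0.02 and -0.02), so numbers were not used as pairs.

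Named genes were the 6 lowest and 3 highest called members of each comparison (non-overlapping groups, higher group averaging 20 counts or more), the 4 members with the smallest p in each difference test, the role lists, the tissue paralogs, untested members and up to 4 genes of each related list; RPL15, RPL6, RPS29, RPL27A, RPS27, RPL34, RPS13, RPL36 and RPS18 were chosen after their values were seen. Members and lists were chosen with earlier results of these data known. Gene positions and transcripts come from GENCODE v29, and promoters from RefSeq. Some genes are counted in the totals and not reported here by name.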

Additional observations from a re-analysis of the deposited data

Results flagged for a closer look

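The BRM014 effect differed between lines for 3 of 76 ribosomal protein genes, in edgeR's test of the difference among the 3 lines. Of all genes tested 6.47% passed this test, so the family did not pass it more often than other genes. RPS3A had an adjusted p of 0.0175, with a change of -0.65 in SK-N-DZ against -0.01 in IMR-32 and 0.09 in KELLY; leaving out the first or the second SK-N-DZ DMSO library gave 0.101 and 0.059, and the first or the second SK-N-DZ BRM014 library 0.0919 and 0.0598. RPL10A had an adjusted p of 0.0266, with -1.36 in SK-N-DZ, -0.63 in KELLY and -0.18 in IMR-32, and between 0.00936 and 0.124 when each library was left out in turn, the highest without the first SK-N-DZ DMSO library. RPL35A had an adjusted p of 0.0437, with -1.27 in IMR-32, 0.32 in KELLY and 0.16 in SK-N-DZ, 0.0508 with RLE factors, and 0.429 without the second IMR-32 BRM014 library.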

How the results depend on the processing

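No ribosomal protein gene was called higher in any BRM014 comparison, the auxin comparison or the mean of 3 lines. Leaving out each library in turn gave 4 to 12 lower calls in IMR-32 (16 with all libraries), 3 to 6 in KELLY (12), 18 to 25 in SK-N-DZ (31), 35 to 43 on the mean of 3 lines (42) and 1 to 3 for the difference among lines (3); where this left 1 library in a group, that library was assumed to vary like the others. With transcript length and uridine offsets the lower calls were 4 in KELLY, 20 in SK-N-DZ and 26 on the mean of 3 lines, and RPL3 on the mean went to 0.01 (adjusted p = 0.993). The fit on 4 libraries alone gave 3 lower calls after auxin, with no count made over all genes in that fit. With genes of at least 50 mean counts the KELLY median of the small subunit was -0.40. Scaled by reads with no feature, the background of ribosomal protein genes in unlabelled KELLY was 113% of the labelled level in place of 0.856%, and without RPS27, an alternative chosen after seeing the data, it was 0.564%. The causes of these moves were not tested. With the replicate block, lower calls were 16 in IMR-32, 13 in KELLY, 29 in SK-N-DZ, 0 after auxin and 42 on the mean, and the difference among lines gave 4. Low counts limit RPL36, RPS18, RPL39L and RPS28, whose standard errors were wide.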
